A study of Oryza sativa with 4 samples.

Results

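Defence-related WRKY transcription factors of rice were examined in flag leaf blades of the wild type and of a G protein mutant. The 10 loci were chosen as WRKY genes with a described role in defence, by a list of locus identifiers given with their names; the rule uses no measured value, although earlier results of these data were known when the list was made. All 10 were found among the 35667 rows of the deposited gene table, and all 10 were among the 23672 rows that the authors had tested. The names could be looked up for 4 of the 10 (WRKY24, WRKY62, WRKY71 and WRKY76) in the RefSeq gene table of assembly ASM3414082v1, where their chromosomes were those of the identifiers. That table does not hold the identifiers of the members, so the pairing of name and identifier was not checked further.

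WRKY proteins are plant transcription factors named after a conserved run of amino acids in their DNA-binding domain, next to a zinc finger. They bind short promoter elements called W-boxes, which are common in defence genes and in WRKY genes themselves, so the family forms a network of activators and repressors. In rice leaves several members respond to pathogens, to chitin and other elicitors, or to the hormones salicylic acid and jasmonate. Family members are sorted into groups by the number of WRKY domains and the type of zinc finger. Group I carries a pair of WRKY domains, group IIa holds relatives of known repressors of basal defence, and groups IIc and III each hold 1 of the loci described here.

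RNA came from the widest region of the flag leaf blade. The wild type (WT) was the japonica cultivar TC65, and the mutant (d1) carried the allele d1-1 of RGA1, which encodes the alpha subunit of the heterotrimeric G protein. There were 2 libraries per genotype, 4 in all, described as biological replicates. Plants of both genotypes were greenhouse grown, with an age given both as 2 months and as 100 days, and no pathogen or elicitor treatment is named in the labels. A mutant represented by 1 allele cannot separate the effect of RGA1 from that of other differences between the lines.

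The table gives 1 FPKM value per genotype (fragments normalised to transcript length and to library size), already combined over its 2 libraries. No spread between libraries could therefore be computed, no SD is given, and mapped reads per library are unknown, against about 40000000 reads of 150 bp stated per library. A locus was called changed where the q-value of the authors' deposited table was under 0.05. By that rule 12.1% of all tested loci were called lower in d1 and 7.24% were called higher. The 3 loci entered as rubisco small subunits, markers of leaf tissue, lay between 1757 and 35243 FPKM in both genotypes. RGA1 itself (OS05G0333200) was read at 20.7 FPKM in WT against 17.3 FPKM in d1 and did not pass (q = 0.296 in the authors' deposited table); a value for the whole locus does not show the lesion.

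Of the 10 WRKY loci, 4 were called lower in d1, 1 was called higher and 5 did not pass. The 4 that fell were WRKY45, an activator of salicylic acid-type resistance, and WRKY62, WRKY76 and WRKY28 of group IIa, which are known as repressors of defence. WRKY30 of group I was the riser. These counts stand beside the 12.1% of lower and 7.24% of higher calls among all tested loci. The same 5 loci were called with q under 0.01 (background 7.86% lower and 4.11% higher), with a Benjamini-Hochberg adjustment recomputed from the deposited p-values (9.17% and 5.09%), and with a change of at least 2-fold asked for as well (6.28% and 2.70%). The 5 calls had p = 5e-05 and q = 0.000186 in the authors' deposited table, the lowest values there, which 1342 loci have in common and which therefore do not rank them. Called members differed by at least 1.32 on the log2 scale in either direction, whereas the 5 others differed by 0.58 at most. In whole leaf blades, fewer cells of a type and less RNA per cell cannot be told apart.

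**Figure D1:**
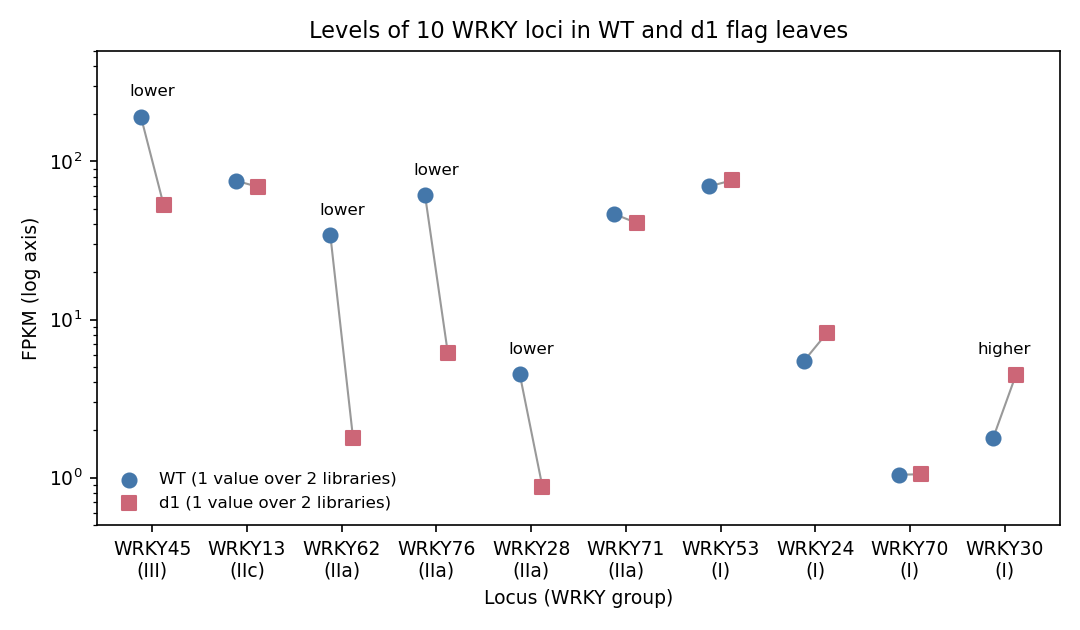
FPKM of the 10 WRKY loci on a log axis, 1 circle for WT and 1 square for d1, joined by a line, with the WRKY group in brackets and the direction written above called loci. WRKY62, WRKY76, WRKY28 and WRKY45 drop from WT to d1, WRKY30 rises, and the lines of the other 5 are short.

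WRKY45 (OS05G0322900, chromosome 5 by its identifier, group III) is needed for the resistance to blast and bacterial blight that chemical activators of the salicylic acid pathway induce. It was read at 191 FPKM in WT against 52.8 FPKM in d1. It was the most abundant of the 10 loci in WT, and came behind WRKY53 and WRKY13 in d1. The fall was 3.62-fold, a log2 ratio of -1.85, with q = 0.000186 in the authors' deposited table. Among all tested loci its level ranked 750th in WT and 2692nd in d1. The difference in level, d1 minus WT, was -138.1 FPKM, the largest among the 10.

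WRKY13 (OS01G0750100, chromosome 1, group IIc) is a regulator whose overexpression turns on salicylic acid genes and holds back jasmonate genes. It was read at 75.5 FPKM in WT against 68.8 FPKM in d1, a log2 ratio of -0.13 that did not pass (q = 0.623 in the authors' deposited table). WRKY13 held the second place among the 10 loci in both genotypes. WRKY45 therefore stood at 2.53 times the WRKY13 level in WT and at 0.767 times that level in d1, although both are described as positive regulators of salicylic acid-type resistance. The difference between the log2 ratios of these loci was not tested.

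WRKY62 and WRKY76 had the largest log2 falls of the 10 loci. WRKY62 (OS09G0417800, group IIa), whose overexpression weakens resistance to bacterial blight, was read at 34.0 FPKM in WT against 1.77 FPKM in d1. This was a 19.2-fold fall, a log2 ratio of -4.26 with q = 0.000186 in the authors' deposited table. With 1 FPKM added to both genotypes the log2 ratio was -3.66, since the d1 value is low. Among 23672 tested loci its log2 ratio ranked 167th from the bottom. WRKY62 moved from the sixth to the eighth place among the members.

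WRKY76 (OS09G0417600, group IIa), whose overexpression lowers blast resistance and phytoalexin production, was read at 60.9 FPKM in WT against 6.17 FPKM in d1. It fell 9.87-fold, a log2 ratio of -3.30 with q = 0.000186 in the authors' deposited table, and ranked 281st from the bottom. In the identifier order of the table no row lies between WRKY76 and WRKY62 on chromosome 9, and in the RefSeq gene table no gene lies between them either. WRKY76 was read at 1.79 times the WRKY62 level in WT and at 3.49 times that level in d1. The treatment of reads that match both of these related neighbours is not stated, which leaves the split between them uncertain.

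WRKY28 (OS06G0649000, chromosome 6, group IIa), a further repressor of basal defence, was much less abundant. It was read at 4.51 FPKM in WT against 0.873 FPKM in d1, a 5.16-fold fall and a log2 ratio of -2.37 (q = 0.000186 in the authors' deposited table). With 1 FPKM added to both genotypes its log2 ratio was -1.56, since it is a low locus. WRKY28 was the only member under 1 FPKM in either genotype, and it took the last place among the members in d1.

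WRKY71 (OS02G0181300, chromosome 2, group IIa) is best known as a repressor of gibberellin signalling in the grain, and its overexpression raises resistance to bacterial blight. It was read at 46.4 FPKM in WT against 40.6 FPKM in d1, a log2 ratio of -0.19 that did not pass (q = 0.563 in the authors' deposited table). Group IIa thus held 3 loci called lower and 1 that was not called, beside 12.1% of lower calls among all tested loci. The WRKY71 level was 0.762 times the WRKY76 level in WT and 6.59 times in d1. Summed over the 4 loci, group IIa amounted to 145.8 FPKM in WT against 49.5 FPKM in d1, and WRKY71 made up most of what was read in d1.

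**Figure D2:**
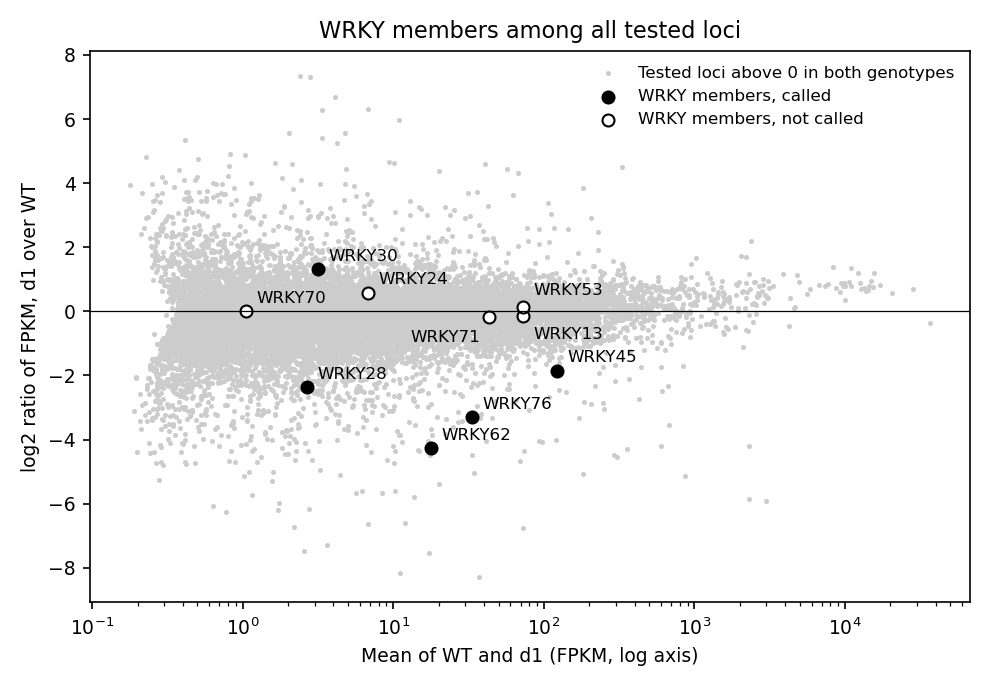
The log2 ratio of FPKM, d1 over WT, against the mean of both genotypes in FPKM on a log axis, for all tested loci above 0 in both genotypes (grey) and for the WRKY members (filled where called, open where not). WRKY45, WRKY76 and WRKY62 lie below most grey points of the same level, while WRKY13, WRKY53 and WRKY71 lie near 0.

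Group I held 4 of the loci. WRKY53 (OS05G0343400, chromosome 5) is induced by elicitors, is a target of mitogen-activated protein kinases and also acts in brassinosteroid signalling. It was read at 69.5 FPKM in WT against 75.8 FPKM in d1 and did not pass (q = 0.660 in the authors' deposited table). Its log2 ratio was 0.13, or -0.14 if both FPKM sums are set equal, so the sign depends on the scale. WRKY53 came behind WRKY45 and WRKY13 in WT and led the 10 loci in d1.

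WRKY24 (OS01G0826400, chromosome 1), a relative of WRKY53 known as a repressor of gibberellin and abscisic acid signalling in the grain, was read at 5.46 FPKM in WT against 8.17 FPKM in d1. Its log2 ratio of 0.58 (0.31 with equal FPKM sums) did not pass after adjustment, with p = 0.0295 and q = 0.0642 in the authors' deposited table. WRKY70 (OS05G0474800, chromosome 5), which has been described in resistance to chewing insects, was read at 1.04 FPKM in WT against 1.05 FPKM in d1. The log2 ratio of WRKY70, 0.01 (-0.26 on the scale of equal sums), did not pass (q = 0.989 in the authors' deposited table).

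WRKY30 (OS08G0499300, chromosome 8), whose overexpression raises resistance to sheath blight and blast, was the 1 member called higher. It was read at 1.79 FPKM in WT against 4.48 FPKM in d1. The rise was 2.50-fold, a log2 ratio of 1.32 (1.05 with equal FPKM sums) with q = 0.000186 in the authors' deposited table, and it ranked 731st from the top among all tested loci. With 1 FPKM added to both genotypes the log2 ratio was 0.97, which is under 2-fold. WRKY30 was read at 0.398 times the WRKY28 level in WT and at 5.14 times that level in d1, so the order of these minor loci was turned. Group I summed to 77.8 FPKM in WT against 89.5 FPKM in d1, mostly WRKY53. The sign of this difference depends on the scale, as it does for WRKY53 alone (log2 ratio -0.14 with equal FPKM sums).

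The summed level of the 10 loci was 490.0 FPKM in WT against 260.6 FPKM in d1, which is 1.88-fold lower. WRKY45 made up 39.0% of the sum in WT and 20.3% in d1, and its difference was 60.2% of the difference between the sums. Without WRKY45 the sums were 299.1 and 207.8 FPKM. WRKY53 and WRKY13 together led the sum in d1, with 29.1% and 26.4%, after 14.2% and 15.4% in WT. The share of WRKY76 went from 12.4% to 2.37% and that of WRKY62 from 6.94% to 0.679%. These sums have no replicate check, and no test was made on them.

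**Figure D3:**
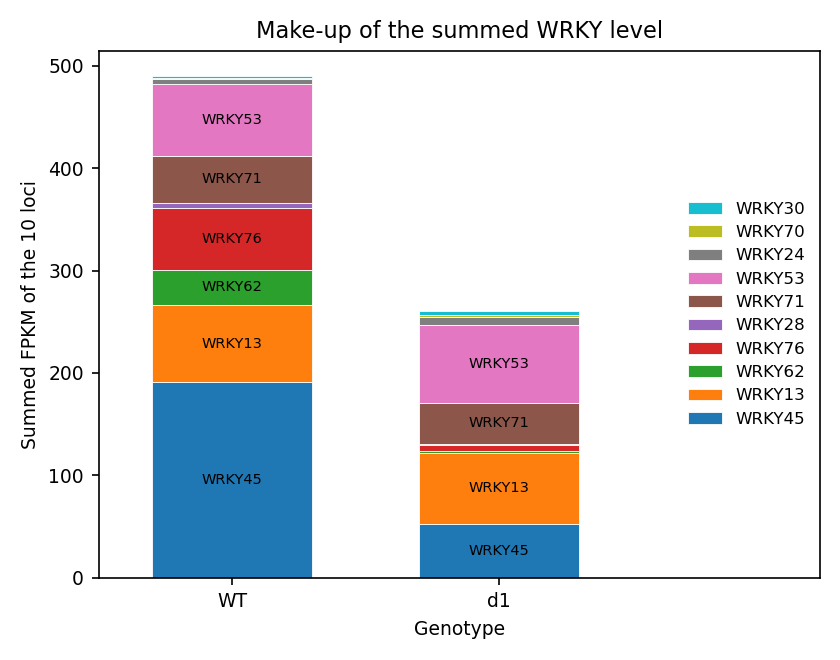
Stacked bars of the FPKM of the 10 WRKY loci in WT and d1, starting at 0, with 1 colour per locus. The WT bar reaches 490.0 FPKM with WRKY45 as its largest block, and the d1 bar reaches 260.6 FPKM with WRKY53 as its largest.

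The order of levels differed between the genotypes. From the top it ran WRKY45, WRKY13, WRKY53, WRKY76, WRKY71, WRKY62, WRKY24, WRKY28, WRKY30 and WRKY70 in WT. In d1 it ran WRKY53, WRKY13, WRKY45, WRKY71, WRKY24, WRKY76, WRKY30, WRKY62, WRKY70 and WRKY28. With 1 value per genotype, neighbours in these orders cannot be set against a spread. The levels spread widely: WRKY53 stood at 12.7 times the level of its relative WRKY24 in WT and at 9.28 times in d1.

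Levels affect how often a locus is called, so the members were also read against loci of like abundance, in 10 equal groups by mean FPKM. WRKY45, WRKY13 and WRKY53 belonged to the top group, where 15.9% of loci were called lower and 17.9% higher. There WRKY45 had the 37th lowest log2 ratio of 2368 loci. WRKY62 had the 7th lowest of 2367 loci in its group, where 12.1% were called lower, and WRKY76 also had the 7th lowest of 2367 in its own, where 12.2% were called lower. WRKY28 ranked 61st from the bottom in its group, and WRKY30 ranked 56th from the top in a group where 6.21% were called higher.

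A wider set of 27 other loci, entered as WRKY genes by identifier from general knowledge and not checked against an annotation, gave the family context. Of these, 22 had been tested, 8 were called lower in d1, none was called higher and 14 did not pass, against a background of 12.1% lower and 7.24% higher calls. The 8 lower loci ranged from 0.789 to 19.5 FPKM in WT and from 0.259 to 6.69 FPKM in d1, with log2 ratios from -3.66 to -1.41. Over the 22 tested loci the median level was 6.87 FPKM in WT against 2.79 FPKM in d1. Their summed level differed less, with 281.4 FPKM in WT against 238.1 FPKM in d1. The most abundant of the 14 that did not pass reached 61.7 FPKM in WT. Log2 ratios had a median of -0.48 in this set (-0.76 on the scale of equal sums), -0.16 over the 10 members (-0.43 on that scale) and -0.02 over all tested loci. With 1 FPKM added to both genotypes these medians were -0.28, -0.16 and -0.01. The 5 untested loci were read at 0.118 FPKM or less.

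Defence loci outside the family were counted by lists entered in the same way. Of 8 loci of elicitor perception, kinases and regulators, which act before or beside the WRKY factors, all were tested, 2 were called lower (log2 ratios of -1.57 and -1.25), none was called higher and 6 did not pass. Their median was 0.00 (-0.27 on the scale of equal sums). All 4 loci entered as pathogenesis-related (PR) proteins, which accumulate in leaves under attack, were called lower, with log2 ratios from -4.47 to -1.66 and a median of -2.68. They ranged from 40.5 to 559 FPKM in WT and from 3.93 to 143 FPKM in d1. Of 11 loci of diterpenoid phytoalexin synthesis, which makes antimicrobial compounds of rice, 6 were tested, 1 was called lower, from 1.92 to 0.209 FPKM, and 5 did not pass. Over the 6 the median was -1.50 (-0.39 with 1 FPKM added). These lists stand beside 12.1% of lower calls among all tested loci, and their relation to the WRKY levels was not tested.

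**Figure D4:**
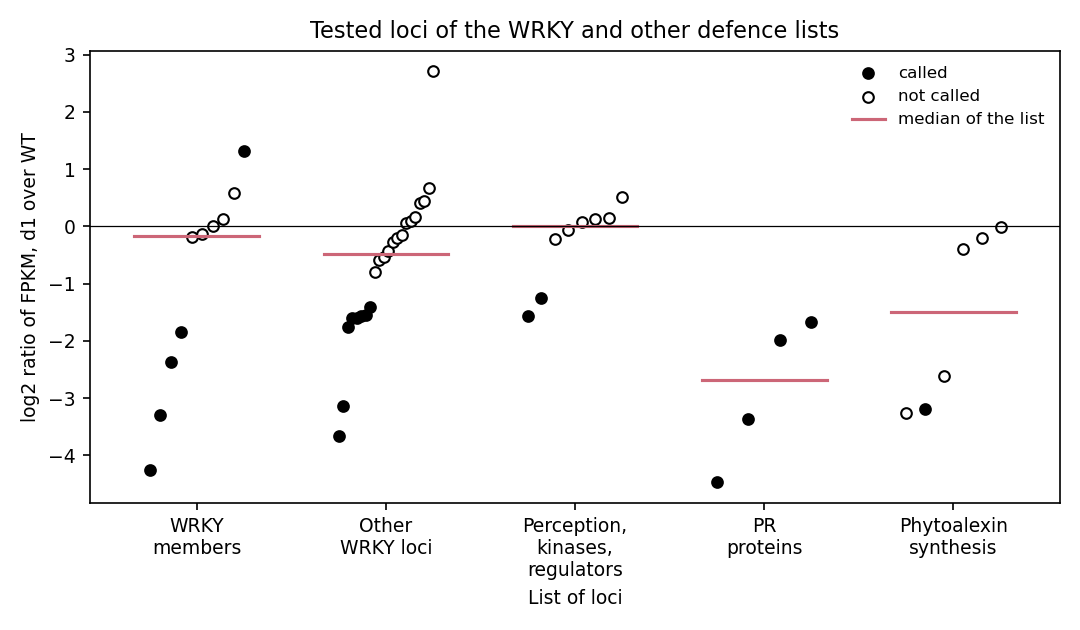
The log2 ratio of FPKM, d1 over WT, of each tested locus in 5 lists, filled where called and open where not, with a line at the list's median. The WRKY members split into 4 low points, 5 near 0 or above and 1 called riser, while all 4 PR protein loci lie below -1.6.

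Position was examined because WRKY45 and WRKY53 lie on either side of RGA1, each 21 tested loci away in identifier order, and WRKY70 lies 539 tested loci away on the same chromosome. Counts of called neighbours stand beside the 12.1% of lower and 7.24% of higher calls among all tested loci, and no test was made on them. Of the 10 tested loci nearest to WRKY45 (5 on each side), 1 was called lower, none was called higher, and the log2 ratios ranged from -0.64 to 1.12 with a median of 0.03. The fall of WRKY45 was thus larger than that of any of these neighbours. Around WRKY53, 4 of 10 neighbours were called higher, 1 of them listed at 0 in WT, none was called lower, and the median log2 ratio was 1.02. WRKY53 itself had a lower log2 ratio than 9 of these 10 loci. The neighbours called higher were read at 206, 5.93, 1.01 and 0 FPKM in WT. Ratios above the median came from those at 206, 1.01 and 0 FPKM, and from loci at 0.407 and 0.302 FPKM, neither called. The median around WRKY53 lay between the log2 ratios of the called neighbours at 5.93 FPKM (0.84) and at 206 FPKM (1.20). The lowest ratio among the 10 was 0.05. How far the median depends on the low loci was not tested. Whether the segment around RGA1 differs in sequence between the lines was not tested.

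Neighbours of the pair on chromosome 9, of WRKY28 and of WRKY30 were counted in the same way. These counts too stand beside 12.1% of lower and 7.24% of higher calls among all tested loci, and were not tested. Apart from each other, WRKY62 and WRKY76 had no neighbour among the nearest 5 tested loci on either side that was called lower, and 1 neighbour, read at 0.617 FPKM in WT against 1.52 FPKM in d1, was called higher. The locus before WRKY76 was read at 0.377 and 0.435 FPKM, and the locus after WRKY62 at 6.45 and 8.70 FPKM, neither of which passed. Around WRKY28, 2 of 10 neighbours were called higher and none lower, and around WRKY30, 1 was called lower and none higher. WRKY28 had a lower log2 ratio than all 10 of its neighbours, and WRKY30 a higher one than all 10 of its own.

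**Figure D5:**
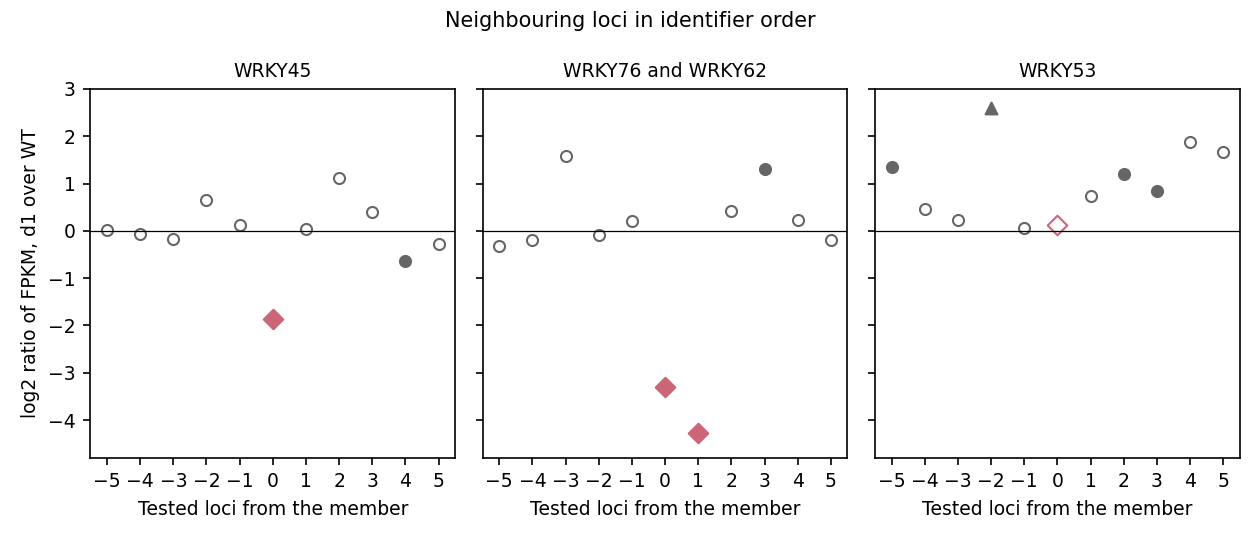
The log2 ratio of FPKM, d1 over WT, of the 5 tested loci on each side of WRKY45, WRKY76 and WRKY53, by their place in identifier order. Diamonds are WRKY members, circles are other loci, filled symbols are called, and the triangle in the WRKY53 panel marks a called locus listed at 0 in WT, drawn at an arbitrary height; WRKY45, WRKY76 and WRKY62 lie below all their other neighbours.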

How the data were processed

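FastQC, Trimmomatic, TopHat2, Cufflinks and Cuffdiff and the build IRGSP-1.0 are named in the submitters' processing notes; in the sources used here neither versions and settings nor the gene annotation are stated. The FPKM values, 1 per genotype over 2 libraries, the p-values and q-values and the test statistic (a signed score, used for no result) were deposited by the authors in 1 table with 35667 rows, of which 23672 were tested. Because 1500 cells of the deposited log2 column are not numeric, log2 ratios were computed from the FPKM values, with no pseudocount unless stated. Over all rows FPKM added up to 1144962 for WT and 1381426 for d1 (log2 ratio 0.27), while the median log2 ratio of tested loci was -0.02. Setting the sums equal lowers every log2 ratio by 0.27.

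No test across libraries was possible, so calls are those of the authors' deposited q-values. A Benjamini-Hochberg adjustment over the 23672 tested rows was recomputed (Python 3.11.15, pandas 2.3.3) and tested on simulated data. It gave larger values than the deposited ones, 0.000882 against 0.000186 for the 5 called members and 0.140 against 0.0642 for WRKY24. With it 2170 loci were called lower and 1205 higher, against 2856 and 1713 by the deposited q-values. How the deposited q-values were adjusted is not stated. The members and lists were chosen with earlier results of these data known. All members are named; other list loci are given by count and range. Levels per length are compared between loci. Of the identifiers in the table, 1 was found in the RefSeq gene table. Depth per library is unknown.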

Additional observations from a re-analysis of the deposited data

How the results depend on the processing

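The 4 lower and 1 higher calls among the 10 WRKY loci were the same in number with q under 0.01, with the recomputed adjustment (0.000882 for each of the 5), with at least 2-fold asked for as well, with at least 1 FPKM in 1 genotype or more, and without repeated identifiers. The counts of the other 4 lists kept within 1.5 times under these settings. Over all tested loci, q under 0.01 left 1860 lower and 972 higher calls, and asking for 2-fold left 1486 and 639, against 2856 and 1713. Setting FPKM sums equal turned the log2 ratio of WRKY53 to -0.14 and that of WRKY70 to -0.26, neither of which was called, and moved the members' median from -0.16 to -0.43; centring on the median of tested loci gave -0.14. No paired analysis was possible because each genotype has a single combined value, which also prevented leaving out a library. Without counts, the precision of values near 1 FPKM is unknown (WRKY70 in both genotypes, WRKY28 and WRKY62 in d1, and WRKY30 in WT).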
